A study of Caenorhabditis elegans with 2 samples.

Results

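The 7 genes described here encode the ATPase CDC-48 and its best-known cofactors in Caenorhabditis elegans: cdc-48.1, cdc-48.2, ufd-1, ufd-2, ufd-3, npl-4.1 and npl-4.2. They are 7 of the 19973 protein-coding genes on chromosomes I to V and X. The set was chosen from values of these same peak lists, in which the cdc-48.1 peak is one of the strongest, together with the genes of its cofactors. The strength of the cdc-48.1 peak is therefore given as a description, with no test.

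CDC-48, known as p97 or VCP in mammals, is a ring-shaped AAA ATPase that pulls ubiquitin-tagged proteins out of complexes, membranes and chromatin and unfolds them, often on the way to the proteasome. Worms have a pair of genes for it, cdc-48.1 and cdc-48.2. UFD-1 and NPL-4 form the adaptor that brings ubiquitin chains to the ring. UFD-2 is a ligase that lengthens ubiquitin chains, and UFD-3 is a WD-repeat cofactor that binds ubiquitin and CDC-48. TLF-1 is a relative of the TATA-binding protein TBP, and in animals such relatives act at promoters that TBP does not serve in the usual way.

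TLF-1 binding was measured by chromatin immunoprecipitation and sequencing in whole young adults at 65.5 hours, both sexes mixed, synchronised as L1 larvae starved after bleaching. All animals were of strain OP749, which carries the integrated transgene wgIs749, a fusion of tlf-1 to TY1, EGFP and 3xFLAG with unc-119(+), in an unc-119 (tm4063) background. An antibody against GFP was used. The single group held 2 libraries, labelled as biological replicates, each with its own sample record, and whether they were separate cultures is not stated. An untagged strain was not analysed here, so signal that does not depend on the tag was not separated. The tag sits at the C terminus of TLF-1, and the labels do not name the promoter that drives the fusion. In whole animals, strong binding in few cells and weak binding in many cannot be told apart.

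Each peak has a summit, a deposited signal value and a rank in its list, where rank 1 is the highest signal. The pooled list, called on both replicates together, held 28153 peaks, the list of replicate 1 held 24495 and that of replicate 2 held 23453. A further set, kept by the authors for its irreproducible discovery rate (IDR), held 1880 peaks. These were the 1880 strongest pooled peaks, so the weakest inside had a signal of 83.60 and the strongest outside 83.58. Read depth is not given in these files. A summit was assigned to a gene when it lay between -1000 and 500 bp of its annotated start. Positions are in bp from that start, negative on the upstream side. Coordinates are those of ce11 (WBcel235).

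The 7 genes ranged from one of the strongest peaks of the genome to no listed peak at all. An IDR summit lay in the window of 2 of the 7 genes, cdc-48.1 and ufd-3, while 6.98% of all coding genes had one. A pooled summit lay in the windows of 5 of the 7, against 40.4% of coding genes. The list of replicate 1 had a summit at 4 of the 7, against 37.2% of coding genes, and that of replicate 2 at 5 of the 7, against 36.8%. Both replicate lists had one at 4 of the 7, against 25.6%. Since peaks of these lists chose the genes, nothing is read from how these counts stand to the background. The 2 genes with no summit in any list were npl-4.1 and npl-4.2.

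**Figure D1:**
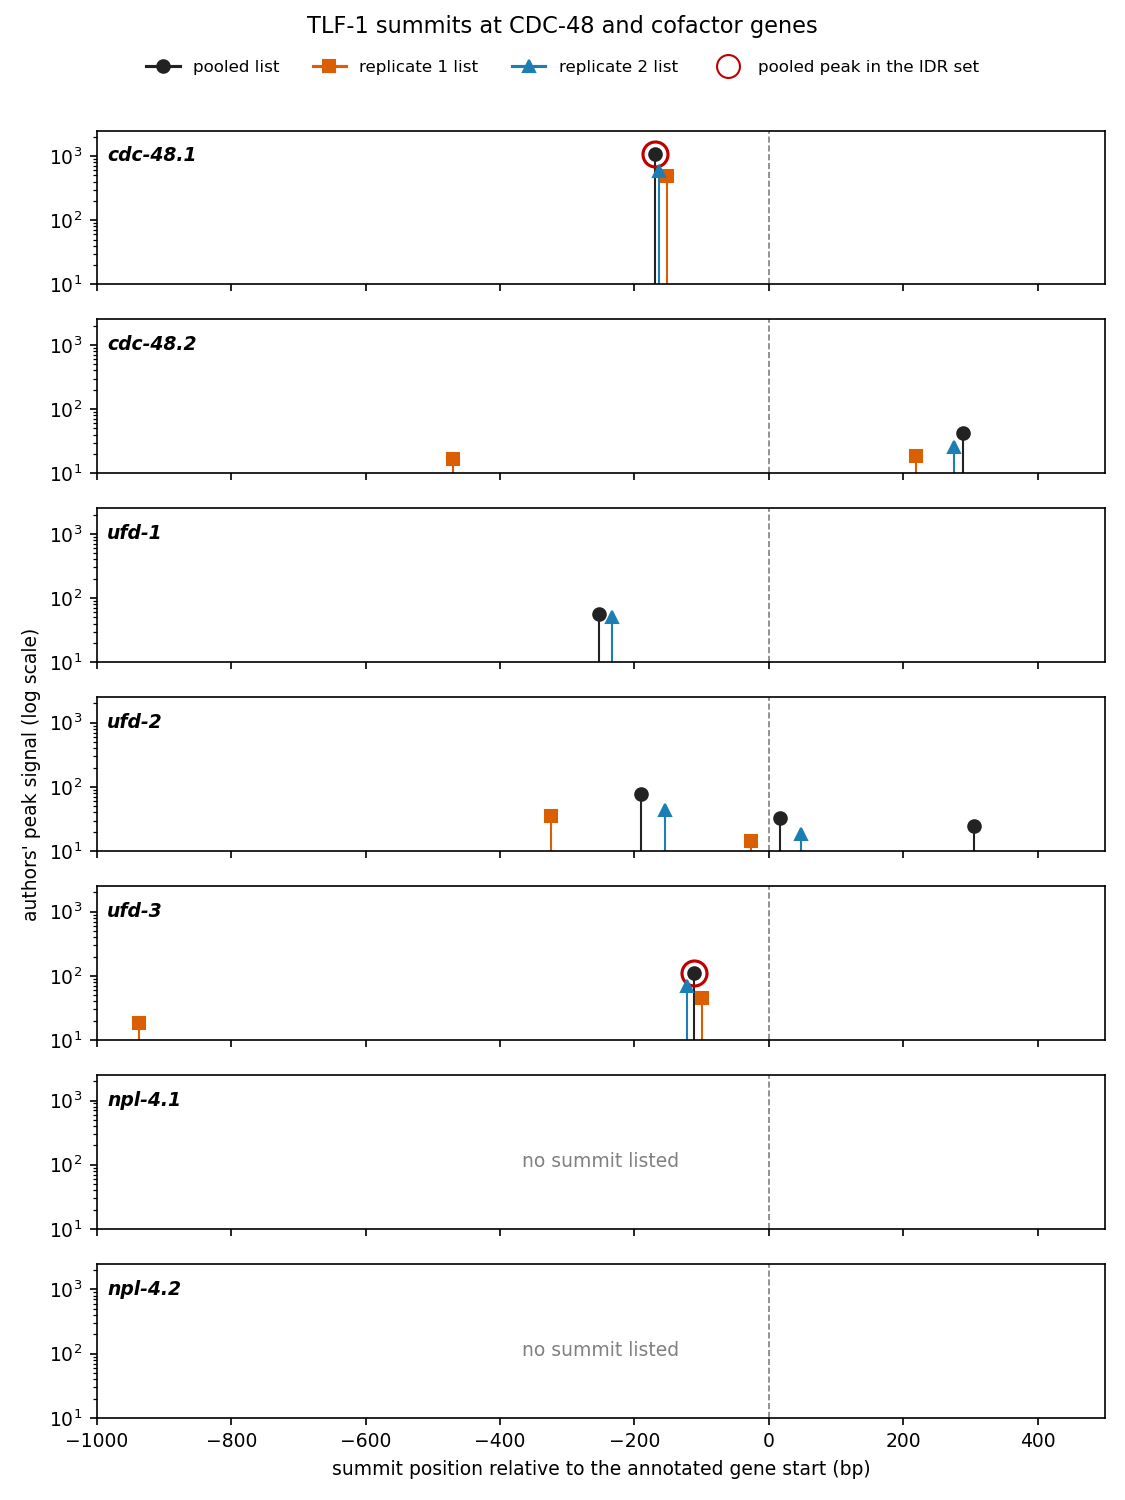
Summits in the window of each of the 7 genes, by position from the annotated start (x axis, bp) and the deposited peak signal (y axis, log scale) in the pooled list (black circles) and the lists of replicate 1 (orange squares) and replicate 2 (blue triangles), with IDR peaks ringed in red. Heights are comparable only within a list. The cdc-48.1 summits stand near -169 bp at a pooled signal of 1082, and ufd-3 comes next at 112.

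The gene cdc-48.1 (WBGene00007352, chromosome II, 10560036 to 10563407, minus strand) had a single summit in its window in every list. In the pooled list and the IDR set its peak ran from 10563392 to 10563743, with the summit at -169 bp, a signal of 1082 and rank 5. In replicate 1 the summit was at -152 bp with a signal of 489 and rank 5, and in replicate 2 it was at -163 bp with a signal of 592 and rank 4. The replicate summits thus lay 11 bp apart, at a mean of -157.5 ± 7.78 bp (SD, n = 2). By strongest summit in the window, cdc-48.1 was gene 7 of the 8069 coding genes with a pooled summit, gene 7 of 7421 in replicate 1 and gene 6 of 7353 in replicate 2, since some stronger peaks lie in the windows of several genes. No other coding gene had this summit in its window. The next coding gene upstream, C06A1.6, lay 704 bp away on the same strand.

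The pooled peaks around it in rank included those of the ribosomal protein genes rpl-20, rpl-35 and rpl-15 and of hsp-60, a mitochondrial chaperone gene. Above it stood the peaks of tasp-1 with K01G5.10 (1289), of Y17G9B.5 with rpl-20 (1277) and of rpl-35 (1133). Below it stood those of rpl-15 with K11H12.8 (1018), of Y22D7AL.10 with hsp-60 (886) and of drr-2 with set-16 (863). Replicate 1 had these peaks in the same order. In replicate 2 the peak of Y17G9B.5 passed that of tasp-1, and the peak of cdc-48.1 passed that of rpl-35. The peak of cdc-48.1 was also narrow, at 352 bp in the pooled list, 325 bp in replicate 1 and 317 bp in replicate 2. The commonest widths were 404, 420 and 396 bp, which 98.3%, 99.0% and 98.9% of the peaks of these lists had. Among the stronger peaks of the IDR set, 76.3% had a width of 404 bp, so other widths were less rare there.

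**Figure D2:**
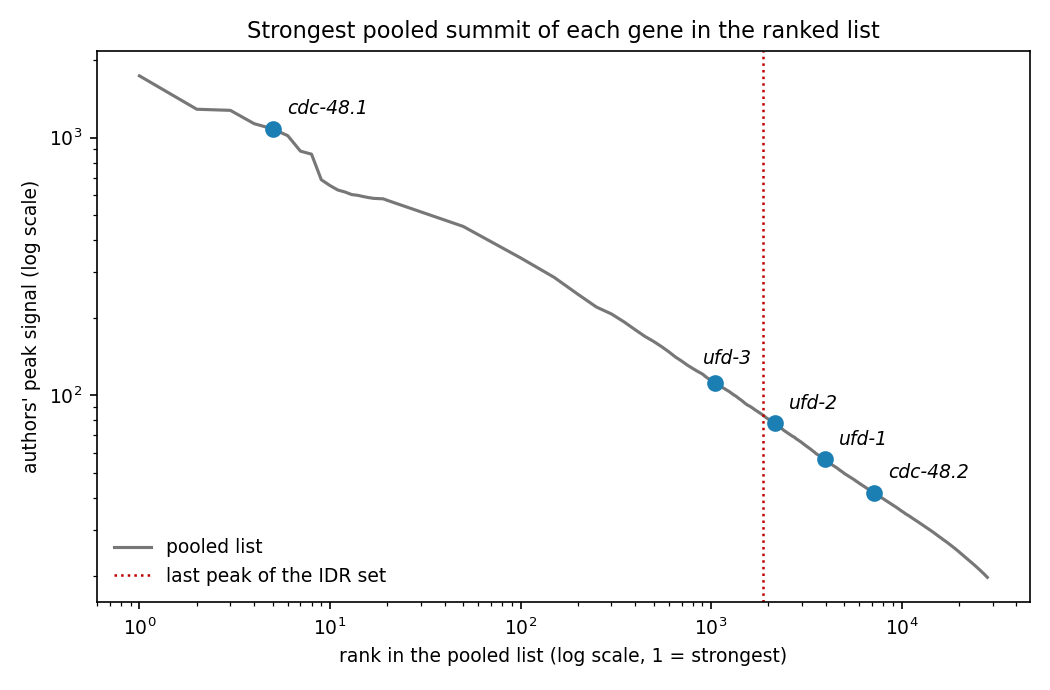
Deposited signal (y axis, log scale) against rank (x axis, log scale) in the pooled list, with the strongest summit of the 5 genes that have one marked as blue points and the last IDR peak as a dotted line. The gene cdc-48.1 stands at rank 5 and cdc-48.2 at rank 7132, with ufd-3, ufd-2 and ufd-1 between them.

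The sequence under the cdc-48.1 summit is shown because it carries the strongest peak of the set, beside the same stretch of its paralogue, which has no summit there. Each line gives 200 bases in the direction of transcription, from -269 to -70 bp, read from the RefSeq copy of WBcel235. Capitals mark matches to TATAAA and CCAAT on either strand (ATTGG is CCAAT on the other strand). The first is chrII:10563477-10563676, minus strand, and the second is chrII:8138227-8138426, plus strand.
cdc-48.1: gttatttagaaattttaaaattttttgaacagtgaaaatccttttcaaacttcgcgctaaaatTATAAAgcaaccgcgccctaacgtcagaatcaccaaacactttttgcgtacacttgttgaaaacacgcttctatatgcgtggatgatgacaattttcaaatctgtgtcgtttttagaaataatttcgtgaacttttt
cdc-48.2: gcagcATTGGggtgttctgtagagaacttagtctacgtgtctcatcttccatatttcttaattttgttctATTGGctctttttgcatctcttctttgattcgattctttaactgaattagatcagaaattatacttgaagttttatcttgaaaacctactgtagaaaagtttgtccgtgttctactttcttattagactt

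Both stretches were poor in G and C, at 32.5% for cdc-48.1 and 33.0% for cdc-48.2. The pair CG occurred 10 times in the cdc-48.1 stretch and 3 times in that of cdc-48.2. Around the own summit of cdc-48.2, from 189 to 388 bp and inside its coding exon, CG also occurred 10 times, at 46.5% G and C. The median was 10 pairs in 200 bp at IDR summits, 7 at pooled summits and 5 in the 200 bp before coding starts. The cdc-48.1 stretch held TATAAA once, from -206 to -201 bp, which 15.2% of the 1880 windows at IDR summits and 30.4% of the 19973 stretches before coding starts held as well. A motif match is only a match of letters.

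The paralogue cdc-48.2 (WBGene00008053, chromosome II, 8138496 to 8141230, plus strand) had summits far weaker than those of cdc-48.1, and its strongest lay inside the gene. In the pooled list the summit was at 289 bp, in a coding exon, with a signal of 41.9 and rank 7132. In replicate 1 it was at 219 bp with a signal of 18.6 and rank 11598, and in replicate 2 at 276 bp with a signal of 25.6 and rank 7146. Replicate 1 also listed a summit at -470 bp, with a signal of 17.0 and rank 14019, which the other lists lacked. The deposited -log10 q-value of the pooled peak was 0.734, against 3.51 at cdc-48.1. The latter is the maximum of the list, which 1601 pooled peaks (5.69%) shared.

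The contrast between the paralogues was close to the same in each list. The signal of cdc-48.1 over that of cdc-48.2 was 25.8 in the pooled list, 26.3 in replicate 1 and 23.1 in replicate 2, a mean of 24.7 ± 2.22 over the replicates (SD, n = 2). The cdc-48.2 signal was 2.13 times the weakest pooled peak, 1.49 times the weakest of replicate 1 and 1.75 times the weakest of replicate 2. Against the median peak of each list it was 1.39 times in the pooled list, 1.03 times in replicate 1 and 1.24 times in replicate 2. The peak lists hold no value for positions without a peak, so the ratio compares listed peaks and not coverage.

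Translated from the annotation, CDC-48.1 and CDC-48.2 had 809 and 810 residues and were identical at 89.8% of 802 aligned positions, and their coding sequences at 78.6%. Between the windows the longest shared run was 12 bp, and it lay downstream of both starts. Of the 36-base words in the cdc-48.2 window, 0 of 1466 occurred elsewhere in the genome. In the cdc-48.1 window 109 of 1466 did (7.44%), all between -1000 and -797 bp and so away from the summit. The strongest summits of both genes lay outside such repeated sequence.

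**Figure D3:**
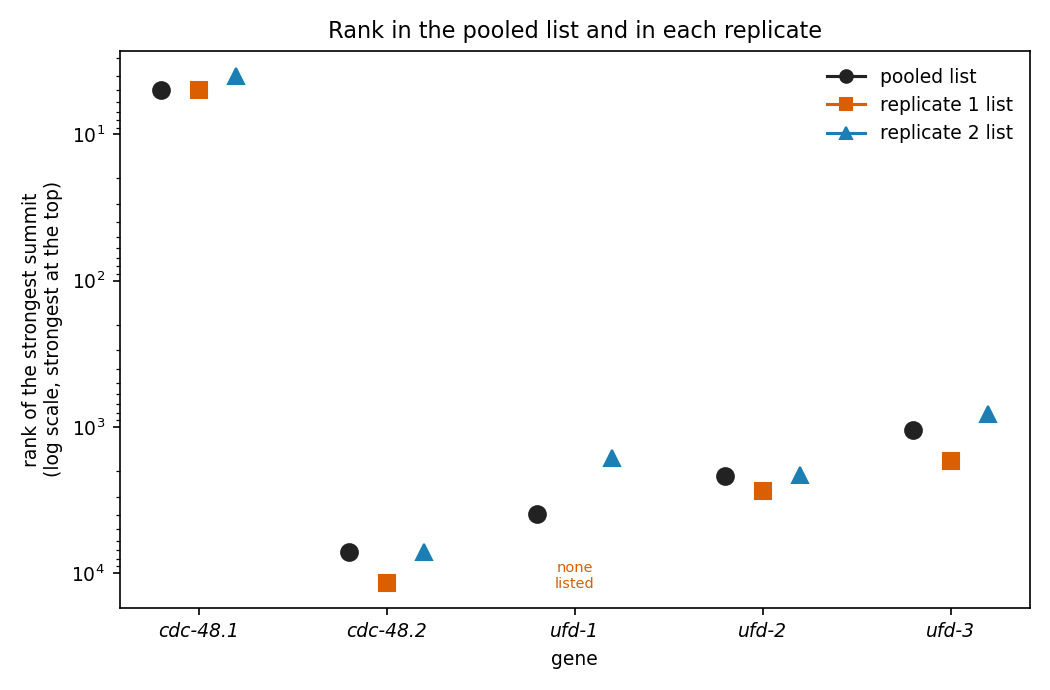
Rank of the strongest summit in the window (y axis, log scale, strongest at the top) for the 5 genes with one, in the pooled list (black circles), replicate 1 (orange squares) and replicate 2 (blue triangles). The ranks of cdc-48.1 are 5, 5 and 4, those of cdc-48.2 are 7132, 11598 and 7146, and ufd-1 has no summit in replicate 1.

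Of the cofactors, ufd-3 (WBGene00007333, chromosome II, 9940753 to 9944107, plus strand) had the strongest peak and the only one in the IDR set. Its pooled summit was at -112 bp with a signal of 112 and rank 1051. In replicate 1 the summit was at -100 bp with a signal of 45.1 and rank 1701, and in replicate 2 at -122 bp with a signal of 69.6 and rank 822. The replicate summits lay 22 bp apart, while the larger rank was 2.07 times the smaller. Replicate 1 listed a second summit at -937 bp, in an intron of the upstream gene C05C10.5, with a signal of 18.6 and rank 11631, and also in the window of C05C10.7. C05C10.5 ends 320 bp before ufd-3 on the same strand.

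The gene ufd-2 (WBGene00006734, chromosome II, 8062741 to 8066193, plus strand) stood outside the IDR set. Its pooled summit at -191 bp had a signal of 78.0, rank 2157 and a -log10 q-value of 2.94. In replicate 1 the summit was at -324 bp with a signal of 35.8 and rank 2735, and in replicate 2 at -155 bp with a signal of 44.4 and rank 2143. The ranks were close but the summits lay 169 bp apart, the widest gap between replicates in the set. Weaker pooled summits followed at 16 bp (32.7, rank 11922) and 305 bp (24.3, rank 20576). The first had partners in both replicates, at -26 bp in replicate 1 and 48 bp in replicate 2, and the second had none.

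The stretches under the ufd-3 and ufd-2 summits are shown as the other promoter summits of the set that lie between genes. The ufd-3 line covers chrII:9940541-9940740, from -212 to -13 bp, and the ufd-2 line chrII:8062450-8062649, from -291 to -92 bp, both on the plus strand, with CCAAT in capitals.
ufd-3: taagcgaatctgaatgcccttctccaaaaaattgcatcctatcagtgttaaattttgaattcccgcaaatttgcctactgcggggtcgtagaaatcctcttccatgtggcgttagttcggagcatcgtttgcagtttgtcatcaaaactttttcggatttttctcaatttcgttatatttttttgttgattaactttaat
ufd-2: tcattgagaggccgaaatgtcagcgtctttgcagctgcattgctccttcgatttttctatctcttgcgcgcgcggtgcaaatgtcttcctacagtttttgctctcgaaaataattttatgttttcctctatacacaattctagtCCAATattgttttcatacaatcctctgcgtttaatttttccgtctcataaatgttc

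The pair CG occurred 9 times in the ufd-3 stretch and 10 times in that of ufd-2. The median was 10 at IDR summits, which include that of ufd-3 but not that of ufd-2, and 7 at pooled summits. Several short motifs were sought on both strands in the 200 bp around the strongest pooled summit of each gene. GCGCCA was in none of the 5 stretches. It was in 15.6% of the windows of the same length at IDR summits and in 5.42% of those at pooled summits. Before coding starts the share was 3.24%. Only the stretches of cdc-48.1 and ufd-3 lie at IDR summits. ACGCGC, whose last letters can overlap with GCGCCA, was found only in the ufd-1 stretch, at -324 and -251 bp. It was in 15.5% of windows at IDR summits, 4.82% of those at pooled summits and 4.34% of those before coding starts. Of the 5 stretches, CCAAT was found only in that of ufd-2, at -147 bp. It was in 30.5% of windows at IDR summits, 36.1% of those at pooled summits and 32.2% of those before starts. CACGTG was in none of the 5, against 8.46% at IDR summits, 5.47% at pooled summits and 4.22% before starts. GAANNTTC was in none, against 11.8%, 11.9% and 12.6% in the same order. In the promoters, from 250 bp before to 50 bp after each start, the matches were different. CACGTG was in those of ufd-1 and ufd-2, 2 of the 7 genes, against 5.82% of all coding genes. CCAAT was in those of cdc-48.2, ufd-2 and ufd-3, 3 of the 7, against 45.5% of coding genes. GAANNTTC was in that of ufd-3, against 18.5%, and TATAAA in that of cdc-48.1, against 37.9%. The cdc-48.1 promoter held 2 matches to TATAAA, including that from -206 to -201 bp. GCGCCA was in none of the 7, against 5.08% of coding genes, and the same held for ACGCGC, against 5.92%. No match says only that these letters are not in these windows.

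For ufd-1 (WBGene00006733, chromosome IV, 12329408 to 12330890, minus strand) the replicates differed. The pooled summit was at -253 bp with a signal of 56.5, rank 3935 and a -log10 q-value of 1.99. Replicate 2 listed it at -233 bp with a signal of 50.3 and rank 1629, which would place it within the first 1880 peaks of that list. Replicate 1 listed no summit in the window, in a list that goes down to a signal of 12.5. The pooled peak at ufd-1 thus had a listed counterpart in 1 of the 2 replicates. The gene lies close behind F19B6.1, which ends 85 bp upstream on the same strand, and the summit fell in the annotated 3' untranslated part of that gene, so its sequence is not shown. No other coding gene had this summit in its window.

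The adaptor genes npl-4.1 (WBGene00019120, chromosome II, 5631351 to 5633284, plus strand) and npl-4.2 (WBGene00019121, chromosome II, 5622889 to 5624959, plus strand) had no summit in any of the 4 lists. Their windows are near-copies of each other. Over 1501 bp they differed at 1 position, 14 bp after the start, and their coding sequences were identical at 99.5% of 1587 positions. In each window 1430 of 1466 words of 36 bases (97.5%) occurred elsewhere in the genome, and 96.6% of those of 50 bases did. A read of that length from such a word matches more than one place. How the authors treated such reads is not given in the sources used here.

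None of the 4 lists held a summit at a coding gene with such a window. Of 243 coding genes with 90% or more of their words found elsewhere, 0 had a pooled summit. In either replicate list or the IDR set, 0 of them had a summit. These genes include npl-4.1 and npl-4.2 themselves. Of 12528 coding genes whose windows hold no repeated word, 5703 (45.5%) had a pooled summit and 8.33% an IDR summit. With words of 50 bases the counts were 0 of 240 genes and 6451 of 14608 (44.2%). The part of repeated sequence in the lack of a peak at npl-4.1 and npl-4.2 was not tested.

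**Figure D4:**
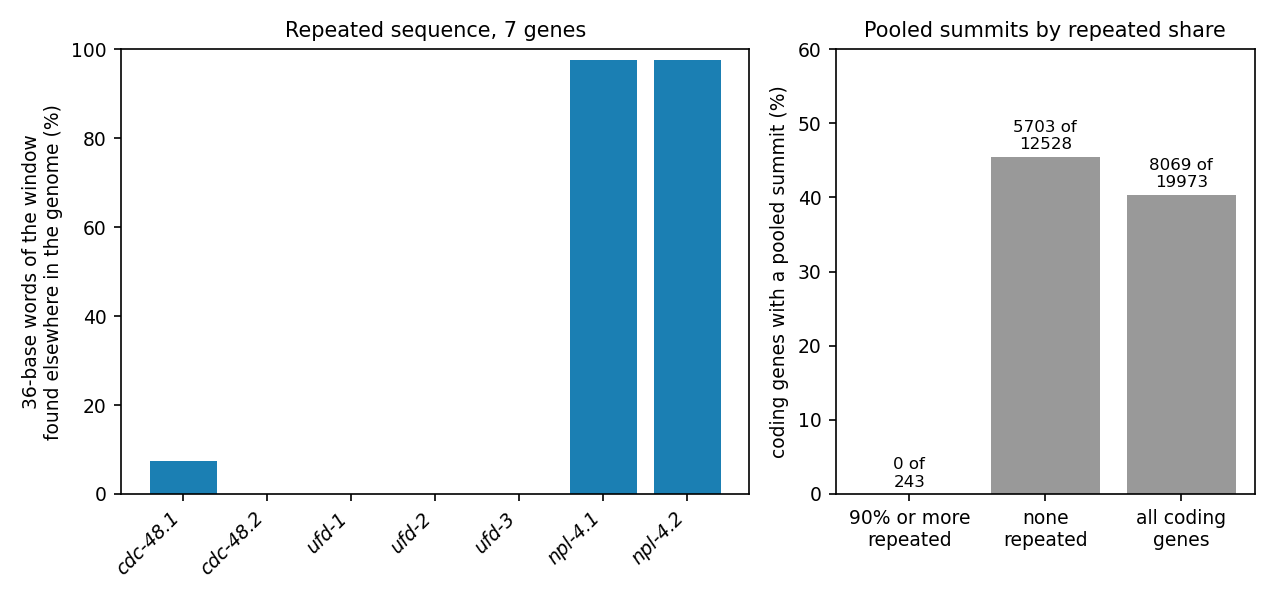
Left, the share of 36-base words of each gene's window that occur elsewhere in the genome (y axis, percent). Right, the share of coding genes with a pooled summit (y axis, percent) among those with 90% or more of words repeated, those with none repeated and all. The npl-4.1 and npl-4.2 windows reach 97.5%, and 0 of 243 genes with such windows have a summit.

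The strongest pooled summit lay upstream of the start at 4 of the 5 genes that had one, and inside the gene at cdc-48.2. Of all coding genes with a pooled summit, 71.5% had their strongest one upstream. Over the 1394 coding genes with an IDR summit, the strongest lay at a median of -232.5 bp (quartiles -418 and -107 bp), and 89.3% were upstream. The IDR summits of cdc-48.1 at -169 bp and ufd-3 at -112 bp both lay between that median and the quartile nearer the start. Over the 8069 genes with a pooled summit the median was -188 bp (quartiles -479 and 41 bp). The pooled summit of cdc-48.2 at 289 bp was among the 13.7% that lay 200 bp or more downstream of the start.

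**Figure D5:**
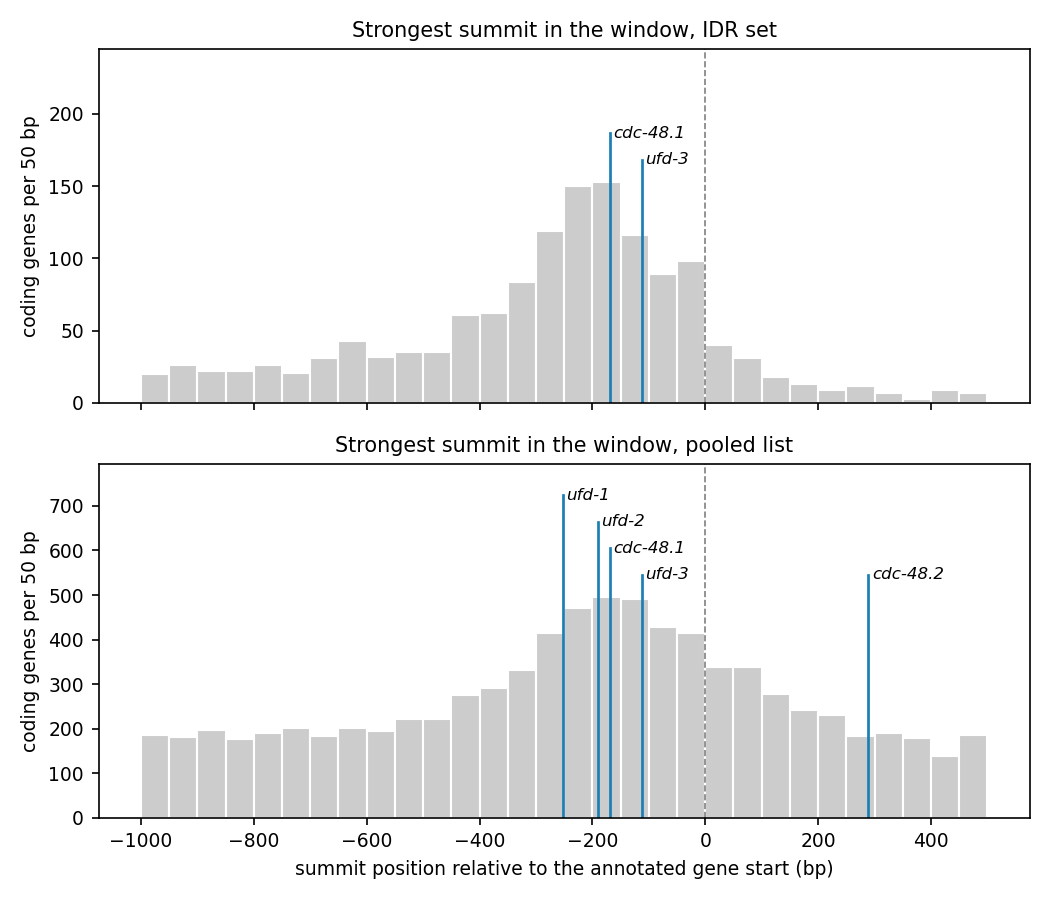
Position of the strongest summit in the window (x axis, bp from the annotated start) for all coding genes with one (grey bars, genes per 50 bp), in the IDR set above and the pooled list below, with blue lines at the genes of the CDC-48 set. The lines of ufd-1, ufd-2, cdc-48.1 and ufd-3 fall from -253 to -112 bp, and that of cdc-48.2 at 289 bp.

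The 3 further lists held partners of CDC-48, genes of protein degradation at the endoplasmic reticulum and, as relatives of the ATPase with other tasks, other AAA ATPases. Of 13 genes for UBX-domain proteins and other CDC-48 partners, 4 had an IDR summit (30.8%) and 10 a pooled one (76.9%), against 6.98% and 40.4% of all coding genes. The strongest was dvc-1, whose product is the worm Spartan protease that acts on DNA-bound proteins, with a pooled signal of 242 and rank 207 at -80 bp, and it ranked 291 in replicate 1 and 183 in replicate 2. The summit also lay in the window of ima-1. It was followed by ubql-1, which encodes a ubiquilin, at rank 269 with pdi-3 in the same window, and by the UBX-domain genes ubxn-2 at rank 827 and ubxn-3 at rank 1179. No pooled summit was listed at ubxn-4, ubxn-5 or png-1. Each replicate list had a weak summit at ubxn-4, but at different places. These were at -548 bp in replicate 1 (rank 10820) and -97 bp in replicate 2 (rank 19039).

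The genes of protein degradation at the endoplasmic reticulum, where CDC-48 extracts misfolded proteins, included 7 that matched the annotation. Of these 7, 0 had an IDR summit, against 6.98% of all coding genes. A pooled summit was listed at 5 (71.4%, against 40.4% of all coding genes). The closest to the set was cup-2, which encodes a derlin, at rank 1886 with a signal of 83.45, just below the weakest IDR peak. Of 18 genes for other AAA ATPases, 4 had an IDR summit (22.2%) and 14 a pooled one (77.8%), against 6.98% and 40.4% of all coding genes. These 4 were rfc-4, a subunit of the clamp loader, at rank 127, vps-4, which takes apart ESCRT filaments, at rank 352, spas-1, the worm spastin, at rank 613, and atad-3, a mitochondrial ATPase, at rank 665. The summit of rfc-4 also lay in the window of eef-1A.1, and that of atad-3 in the window of nrde-2. None of these genes stood as high as cdc-48.1 at rank 5. The CDC-48 set was chosen for that strong peak, so nothing is read from this order. The lists were chosen with these data known, and no test was made of these shares.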

How the data were processed

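Peak lists in narrowPeak format on assembly ce11 were used as deposited. Per the README files, the authors made the list of each replicate from its own reads and 1 control that both share, the pooled list from both replicates with that control, and the IDR set from these 3 lists. Peak caller, aligner, read length, depth and IDR threshold: not given in the sources used here. The deposited signal and the deposited -log10 q-value are the authors' own, used only within a list. Columns 5 and 8 hold a single value throughout, so they rank nothing.

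Genes came from Ensembl release 115 and sequence from RefSeq, both WBcel235. The RefSeq start of each of the 7 genes was the same as the Ensembl one. Summits were column 2 plus column 10. A replicate peak was matched to a pooled summit when it contained that summit, taking the nearest summit where several did. Words of 36 and 50 bases were sought on both strands of the whole genome. Proteins were translated from the longest annotated coding sequence and aligned globally (Biopython 1.88, BLOSUM62, gap scores -11 and -1). The window assignment was tested on simulated data. Each SD is that of the replicate values.

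The genes, lists and motifs were chosen with earlier results of these data known, so no test was run. Named genes were the 7 genes, the genes that share their summits, the 3 pooled peaks on either side of cdc-48.1 in rank, and the genes of the further lists with an IDR summit. Others named in the text were chosen after their values were seen. Of the 42 names in those lists, 4 did not match the annotation. Alternatives were other windows, overlap in place of summits, every transcript start, stronger peaks and each replicate alone. Analyses used Python 3.11.15, numpy 2.4.6 and matplotlib 3.10.9.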

Additional observations from a re-analysis of the deposited data

How the results depend on the processing

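The count of 2 genes with an IDR summit was 1 in the 940 strongest peaks of the IDR set, where only cdc-48.1 stayed, and ranged from 2 to 3 when each replicate was left out and as many strongest peaks of the other were used. Replicate 2 alone added ufd-1. The count of 5 with a pooled summit was 3 when the window was cut to -250 to 100 bp, which leaves out cdc-48.2 and ufd-1, and ranged from 4 to 5 without each replicate. With that window the share of all coding genes with an IDR summit was 3.45%, among those 940 peaks it was 3.99%, and without each replicate it ranged from 6.59 to 6.89%. Without each replicate the rank of cdc-48.1 ranged from 4 to 5, its summit from -163 to -152 bp and its signal over that of cdc-48.2 from 23.1 to 26.3. Under the other settings these counts stayed within 1.5 times, with that share from 5.28 to 7.43%. Among peaks with a summit in a coding window, cdc-48.1 still had rank 5. With every transcript start its summit stayed at -169 bp, and with the summit nearest to the start the signal ratio stayed 25.8. The ratio was not computed in other windows. From 500 bp upstream to 100 bp downstream, cdc-48.2 had no summit in the pooled list or that of replicate 2. Ranking by columns 5 and 8 was not run, since each holds a single value. No paired analysis was possible because the study has 1 group. The files give no read depth, and its effect on weak peaks was not tested.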

Other observations

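Outside the windows, cdc-48.1 carried a second IDR peak within the gene. Its summit lay at 2669 bp, in an intron and over C06A1.8, a gene for a small nucleolar RNA, with a pooled signal of 106.0 and rank 1180. Replicate 2 listed it at 2663 bp with rank 897, also in the intron and over C06A1.8. Replicate 1 listed it at 2726 bp with rank 2822, in a coding exon of cdc-48.1.

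Near cdc-48.2 the strongest pooled peak within 3000 bp lay at 2846 bp, past the end of the gene and in a coding exon of its neighbour ints-11, with a signal of 80.9 and rank 1997. It ranked 999 in replicate 2, and replicate 1 listed a summit at 2861 bp with rank 14986.

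Upstream of ufd-3 another IDR peak lay at -1684 bp, in the windows of C05C10.5 and C05C10.7, with a pooled signal of 132 and rank 733, against rank 1051 for the peak of ufd-3 itself. It ranked above that peak in replicate 1 (664 against 1701) and below it in replicate 2 (1046 against 822). At npl-4.1 and npl-4.2, where the windows hold no listed summit, pooled peaks were listed farther out, the nearest at -2150 bp from npl-4.1 (20.4, rank 26909) and -1784 bp from npl-4.2 (26.4, rank 17929).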
